A study of Mus musculus with 2 samples.

Results

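The genes described here encode C-type lectins, Siglecs and galectins, the main families of glycan-binding proteins on and around myeloid cells. They were taken by name: every gene whose symbol starts with Clec, Colec, Cd209 or Siglec, or with Lgals followed by a digit, together with Cd22, Cd33 and Mag. On the array, 72 probe sets carried such a symbol and no other, and they stood for 53 genes, of 18193 that could be read in this way. Where a gene had several probe sets, the one brightest on average in log2 terms represents it. Both rules read names and brightness alone.

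Gene expression was measured on 1 Affymetrix array of macrophages and 1 of osteoclasts. Marrow cells of C57/Black6 mice aged 8 weeks were first grown for 3 days in M-CSF, the cytokine that keeps macrophages alive and dividing. The adherent progenitors were then kept for 6 days in M-CSF alone, giving macrophages, or in M-CSF together with RANKL, which induces osteoclast formation. M-CSF was thus present in both cultures, and the labels name no genetic change in either. The sources used here do not say whether both came from the same animals, or whether marrow of several animals was pooled. Sex-linked genes, given below, show that the arrays differed in the sex of the animals.

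C-type lectins bind glycans or other ligands through a shared fold. Many myeloid members signal by pairing with the ITAM-bearing adaptors FcRgamma (Fcer1g) or DAP12 (Tyrobp), which recruit the kinase Syk, the same adaptors that give osteoclast precursors their costimulatory signal. Siglecs are immunoglobulin-like receptors for sialic acid, and several of them carry an ITIM, an inhibitory motif that recruits phosphatases. Galectins are secreted or cytosolic proteins that bind galactose-containing glycans and can crosslink glycoproteins at the cell surface.

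There is a single array of each kind, so differences are described without a test or p-value. Signals ran lower in the osteoclast array, with a median log2 difference of -0.43 over 23708 probe sets measured in both arrays. Differences below are log2 of osteoclast over macrophage relative to this shift, and the word deposited marks values without that step. A signal counted as measured above a floor of 17.0 in macrophages and 14.4 in osteoclasts, the 40th percentile of each array, and a dimmer signal was raised to it. A second, more cautious background level of 28.2 and 25.7 was the 95th percentile of 80 probe sets of olfactory or vomeronasal receptors, which these cells are not known to use. Probe sets that read the same gene differed with an SD of 0.49 on the log2 scale over all genes, and of 0.50 over 14 probe sets of 7 of the lectin genes. It holds no variation between cultures or animals. All 10 osteoclast markers were higher by 2-fold or more in osteoclasts, and all 10 macrophage markers were measured in both arrays, 5 of them at least 2-fold lower in osteoclasts. Xist read 1872 in the macrophage and 22.1 in the osteoclast array. The Y-linked Kdm5d, Uty and Eif2s3y read 6.14, 14.7 and 0.571 in macrophages, all under the floor, and 63.5, 72.7 and 321 in osteoclasts. The macrophage array thus read as female and the osteoclast array as male, so the treatment, the sex and the animals cannot be told apart. In bulk RNA, fewer cells of a type and less RNA per cell cannot be told apart either.

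Of the 53 lectin genes, 37 were measured in at least 1 array, 26 of them in both, 6 in macrophages only and 5 in osteoclasts only. The measured share of 69.8% compares with 75.0% of all genes. Most of the 37 kept close to the shift. Only 4 were lower by 2-fold or more in osteoclasts, namely Clec4b1, Colec12, Cd22 and Siglec1, and only Lgals4 was higher by as much. That is 10.8% lower and 2.70% higher, beside 6.99% and 7.11% of all 13647 measured genes, so the lower share differs from the background by only a gene or so. As deposited, 10 were lower and none was higher, beside 17.5% and 3.0% of all genes. With the cautious background level as the floor, 27 lectin genes were measured, 3 of them lower and none higher, beside 6.33% and 6.51% of all genes. The median difference of the lectin genes was -0.24, beside 0.00 for all genes, and -0.68 beside -0.43 as deposited.

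**Figure D1:**
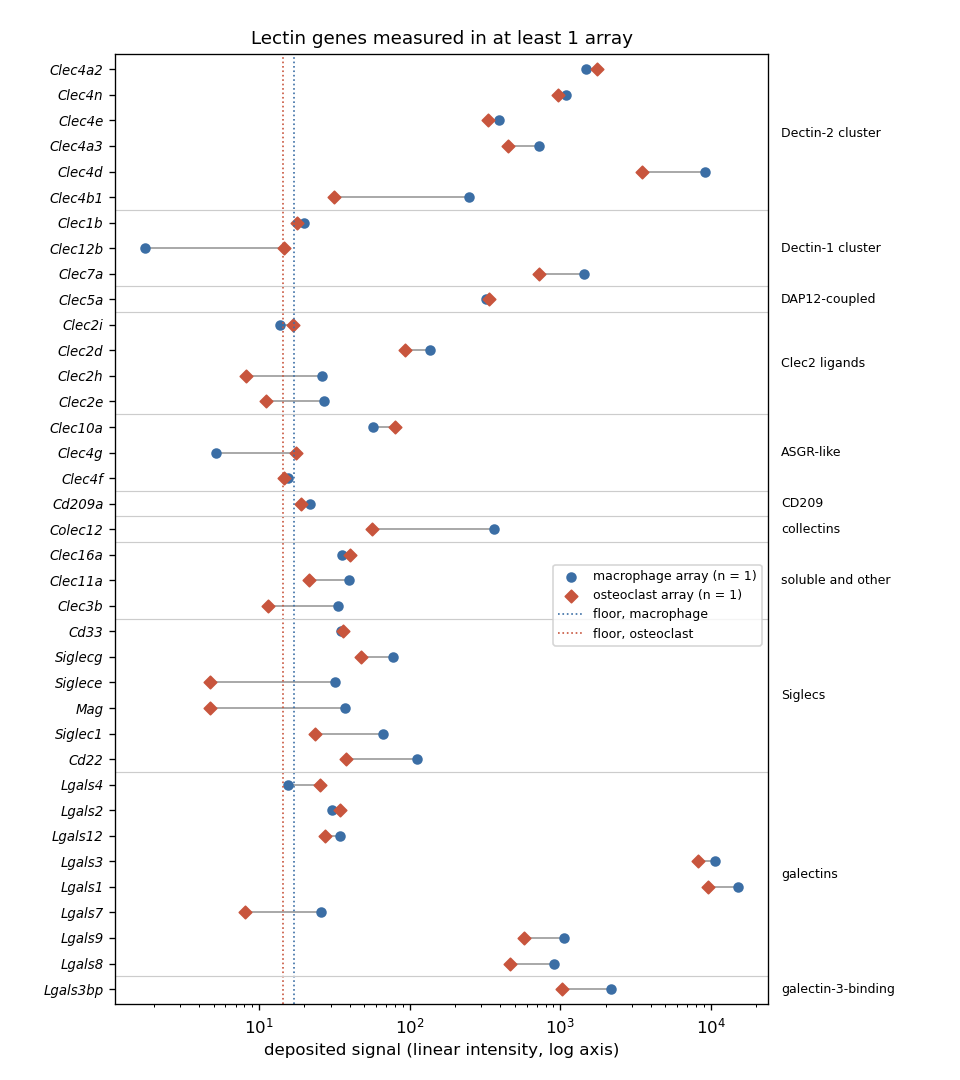
Deposited signal of each of the 37 measured lectin genes (rows, grouped by family) in the macrophage array (circles) and the osteoclast array (diamonds), on a log axis, with the floor of each array dotted. The signals of Clec4b1 (250 and 31.4) and Colec12 (362 and 56.3) lie far apart, those of Lgals3 and Clec5a almost together. Signals of different genes come from different probes and are not comparable with each other.

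The Dectin-2 cluster, a row of related receptor genes of myeloid cells on chromosome 6, held the largest difference. Clec4b1, also called DCAR, an FcRgamma-coupled receptor for mycobacterial glycolipids, read 250 in macrophages against 31.4 in osteoclasts. This is 5.91-fold lower in osteoclasts, a difference of -2.56 (-3.0 as deposited). Its next neighbour among the measured genes, Clec4a2, also called DCIR, is an inhibitory receptor with an ITIM. It read 1473 and 1758 in the same order, a difference of 0.69. A second probe set of Clec4a2 read 124 and 247, a difference of 1.43, at least 2-fold higher. A further probe set, left out above, carries the symbols of both genes. It read 1612 in macrophages and 2659 in osteoclasts, 1.16 relative to the shift, and thus ran with Clec4a2 and not with Clec4b1. How far probes of either gene also read the other was not tested.

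The other members of the cluster differed by less than 2-fold relative to the shift. Clec4d, also called MCL, which works together with Mincle in sensing the mycobacterial cord factor, had 9175 in macrophages and 3484 in osteoclasts (-0.96). It lay just inside the 2-fold limit, and as deposited (-1.40) it passed it. Clec4e, Mincle itself, had 391 and 334 (0.21), while its other probe set read 83.8 and 39.9 (-0.64). The probe sets of Clec4n, Dectin-2, a receptor for fungal mannans, also lay on both sides of the shift, with 1092 and 969 (0.26) and with 958 and 568 (-0.32). Clec4a3, a relative of Clec4a2, had 725 and 451 (-0.25). Among the 6 measured genes of the cluster, 3 lay above and 3 below the shift, and the median was -0.022 (-0.45 as deposited). As deposited, only Clec4a2 (0.26) was higher in osteoclasts. At the probe sets that represent them, Clec4a3, Clec4e and Clec4n lay within the probe set SD of 0.49 from the shift. Differences within the cluster thus varied in size. At these probe sets, opposite directions beyond that SD were seen only for Clec4a2 against Clec4b1 and Clec4d. The other probe set of Clec4e (-0.64) also lay beyond it on the lower side. As deposited, Clec4a2 (0.26) differed by less than that SD, which is no test of a difference between genes.

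The upstream sequences of Clec4b1, Clec4a2 and Clec4d are shown because these genes of the same cluster differed most from each other. Each is the 250 bases before the gene's start on the plus strand of GRCm38.p6, from RefSeq, at chr6:123049712-123049961, chr6:123122440-123122689 and chr6:123261857-123262106. Capitals mark GAGGAA, a core letter pattern of sites of PU.1, the myeloid master factor, and TGGAAA, a core of NFAT sites, on either strand.
Clec4b1: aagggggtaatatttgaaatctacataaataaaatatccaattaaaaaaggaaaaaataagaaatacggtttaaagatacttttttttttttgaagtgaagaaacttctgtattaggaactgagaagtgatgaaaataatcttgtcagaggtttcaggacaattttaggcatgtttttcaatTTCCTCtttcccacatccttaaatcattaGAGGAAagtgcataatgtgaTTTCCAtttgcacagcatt
Clec4a2: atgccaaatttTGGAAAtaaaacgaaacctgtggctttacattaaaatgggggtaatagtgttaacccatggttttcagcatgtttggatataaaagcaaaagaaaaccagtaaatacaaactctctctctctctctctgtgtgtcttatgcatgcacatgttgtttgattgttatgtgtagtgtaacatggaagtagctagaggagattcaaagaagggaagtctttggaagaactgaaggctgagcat
Clec4d: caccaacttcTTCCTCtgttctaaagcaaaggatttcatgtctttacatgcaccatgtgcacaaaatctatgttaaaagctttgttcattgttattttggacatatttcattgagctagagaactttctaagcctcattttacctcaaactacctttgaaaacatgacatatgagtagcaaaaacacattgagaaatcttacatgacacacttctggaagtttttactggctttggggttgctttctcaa
GAGGAA stands in 2 places in the Clec4b1 window, in 1 place in that of Clec4d and not in that of Clec4a2. TGGAAA stands in 1 place each in the windows of Clec4b1 and Clec4a2 and not in that of Clec4d. Upstream windows were at hand for 44 of the 53 lectin genes, and 18 of these held GAGGAA, beside 23.1% of 27025 windows of the same length, 1 per gene. For TGGAAA the numbers were 9 of 44 and 18.7%. TGANTCA, the pattern of AP-1 sites, stood in 6 of 44 and in 6.85% of all, and TCANGTG, a pattern of MITF sites, in 7 of 44 and 12.1%. Related genes share sequence, so their windows are not independent, and a match is a run of letters and not evidence of binding.

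**Figure D2:**
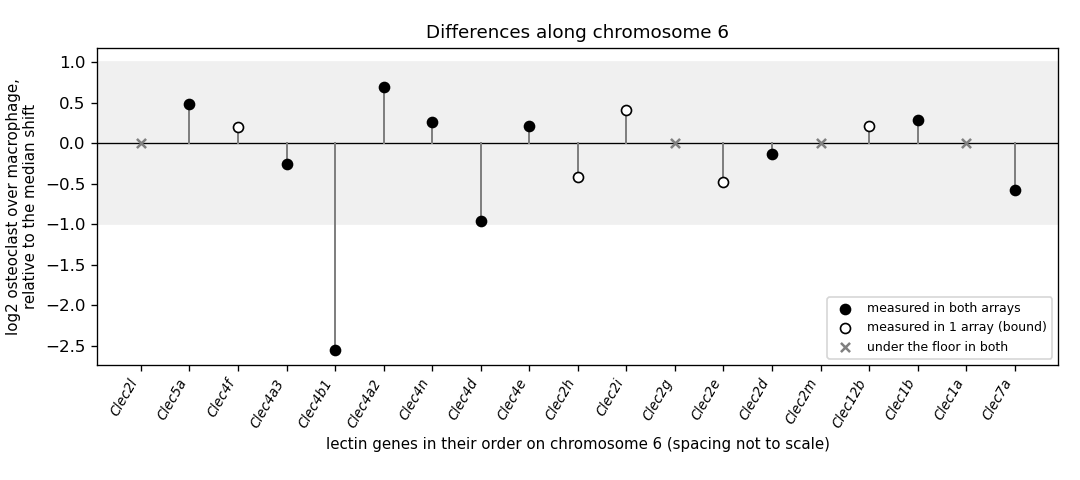
Log2 difference between osteoclasts and macrophages, relative to the median shift, for the lectin genes on chromosome 6 in their order along it. Spacing is not to scale, the shaded band is under 2-fold, and crosses are genes under the floor in both arrays. Clec4b1 (-2.56) stands between Clec4a3 (-0.25) and Clec4a2 (0.69).

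The Dectin-1 cluster holds activating and inhibitory receptors, and neither its 3 measured genes nor Clec5a were 2-fold apart relative to the shift. Clec7a, Dectin-1, the receptor for fungal beta-glucan, had 1446 in macrophages and 718 in osteoclasts (-0.58, and -1.01 as deposited). Clec5a, also called MDL-1, which pairs with DAP12, had 324 and 335 (0.48), so its deposited signals were nearly equal. Clec1b, the podoplanin receptor best known from platelets, read 19.8 and 17.9 (0.29), both in the range of background. The inhibitory receptor gene Clec12b read 1.75 and 14.7 (at the floor, 0.22), and Clec1a was under the floor in both arrays.

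Grouped by their known way of signalling, 8 lectin genes are of the activating kind, namely Clec4n, Clec4d, Clec4e, Clec4b1, Clec5a, Clec7a, Clec1b and Siglech, which was under the floor. The 7 measured ones had a median of 0.21, which turns to -0.23 as deposited, and ran from -2.56 to 0.48. The 5 measured genes known to carry an ITIM, namely Clec4a2, Clec12b, Cd22, Siglece and Siglecg, had a median of -0.27 (-0.70 as deposited) and ran from -1.14 to 0.69. The values of Clec12b and Siglece are bounds at the floor, and both signals of Clec1b are within background. At the cautious background level, 6 activating genes had a median of -0.17 and 4 genes with an ITIM a median of -0.13. The order of the medians thus depended on the floor. Both kinds spread to either side of the shift, and only 1 gene of each was at least 2-fold away from it.

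The remaining C-type lectins included 1 more large difference. Colec12, a collectin anchored in the membrane that acts as a scavenger receptor, read 362 in macrophages against 56.3 in osteoclasts. This is 4.76-fold lower, a difference of -2.25 (-2.68 as deposited), from its only probe set. Colec10 and Colec11, the soluble collectins, were under the floor in both arrays. Stromal cells can also express Colec12, and their markers were present in both cultures. Of 10 stromal and osteoblast markers, 9 were measured, with a summed signal of 13941 in macrophages and 7009 in osteoclasts and a median difference of -0.56. Tnfrsf11b, the RANKL decoy osteoprotegerin, had 189 and 60.9 (-1.20) and was the only one at least 2-fold lower. Its other probe set read 62.2 and 35.2 (-0.39), under 2-fold. Dcn, a matrix proteoglycan, went the other way, from 15.3, under the floor, to 37.0 (1.55 at the floor). The other 7 ran from -0.84 for Sparc to 0.63 for Alpl, with Col1a1 at 2078 and 1381 (-0.16). The part of these cells in the Colec12 difference was not tested.

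Clec10a, the galactose-binding lectin MGL1 of macrophages and dendritic cells, was among the few C-type lectins with a higher deposited signal in osteoclasts. It read 56.9 and 80.5, a difference of 0.93, just under 2-fold. Its relatives Clec4f, known from Kupffer cells, and Clec4g, known from sinusoidal endothelium, read 15.7 and 14.6 and 5.17 and 17.6, and both genes are within background. Mgl2, the other MGL gene of mice, falls outside the naming rule and lay on the opposite side, with 40.1 and 13.2 (-1.04 at the floor), the latter within background. Among 10 dendritic cell markers, 9 were measured, and their median was 0.20 (-0.17 as deposited), with Batf3 (-1.19) and Tcf4 (-1.32) at least 2-fold lower. The median of 0.20 is the value of Irf4 at the floor, from 12.6 and 14.5. At the cautious level, 5 markers were measured, with a median of 0.28. Other measured probe sets of Tcf4 ran from -1.30 to -0.58. The marker Ccr7 was under the floor in both arrays and Xcr1 in osteoclasts. Their bearing on Clec10a was not tested.

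The Clec2 genes encode ligands of natural killer cell receptors. Clec2d, ligand of an inhibitory receptor, had 137 in macrophages and 92.8 in osteoclasts (-0.13). Clec2e (27.0 and 11.2), Clec2h (26.1 and 8.21) and Clec2i (13.9 and 16.8) passed the floor in 1 array but not the cautious background level in either. Clec2g, Clec2l and Clec2m stayed under the floor. Of the 7 Cd209 genes, relatives of the dendritic cell receptor DC-SIGN, only Cd209a passed the floor, at 21.9 and 19.1 (0.24), within background.

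Secreted and other members were dim. Clec11a, a secreted growth factor of bone marrow stroma also called osteolectin, had 39.7 in macrophages and 21.4 in osteoclasts (-0.46). With the osteoclast signal raised to the cautious level, it was at least 1.14-fold lower. Clec3b, tetranectin, a plasminogen-binding protein, read 33.7 and 11.5, with a bound of -0.79 at the floor and none left at the cautious level. Clec16a, which acts in vesicle traffic and autophagy rather than in glycan binding, had 35.5 and 40 (0.60). The 16 genes under the floor in both arrays had signals of 0.508 to 16.8 in macrophages and of 0.719 to 13.5 in osteoclasts. Beside those named above, these are Cd209b, Cd209c, Cd209d, Cd209e, Cd209f, Cd209g, Clec14a, Clec18a and Siglecf.

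Relative to the shift, 5 of 6 measured Siglecs lay lower in osteoclasts, beside 6789 of all 13647 measured genes. Among them, Mag and Siglece passed the floor in macrophages only, so by the rule for bounds they could not lie above the shift. The median of the measured Siglecs was -0.84 (-1.27 as deposited). At the cautious background level all 6 were still measured, but with dim signals raised to it the median was -0.17. Cd22, an inhibitory receptor best known from B cells, had 112 in macrophages and 37.8 in osteoclasts, 2.21-fold lower (-1.14). Its other probe set read 23.6 and 2.29, within background. Siglec1, also called sialoadhesin or CD169, marks tissue macrophages and binds sialic acid without known inhibitory signalling. Its 3 probe sets disagreed: 66.7 in macrophages and 23.5 in osteoclasts (-1.07), 73.8 and 17.9 (-1.61), and 13.8 and 15.3 (0.28, at the floor). With the osteoclast signal at the cautious level, Siglec1 was at least 1.92-fold lower, and so no longer 2-fold.

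Of the other Siglecs, Siglecg, an inhibitory receptor of B cells and some myeloid cells, had 77.6 and 47.8 (-0.27). Siglece, an inhibitory receptor of mouse phagocytes, had 32.1 in macrophages and 4.73 in osteoclasts, a bound of -0.72 at the floor and none left at the cautious level. Mag, a myelin protein, read 37.5 and 4.73, a bound of -0.95 at the floor and of 1.08-fold lower at the cautious level. Cd33 had 35.0 and 36.3 (0.49) and was the only measured Siglec above the shift. Since Cd22 and Siglecg are B cell genes, B cell markers were read beside them. Of 9 such markers, 6 were measured, with a summed signal of 1442 in macrophages and 848 in osteoclasts and a median of -0.33. Most of that sum was Blnk, an adaptor of B cell receptor signalling, with 1240 and 733 (-0.33). The sum thus reads mainly this gene and not the B cell markers as a set. Cd79b, a subunit of the B cell receptor, had 64.7 and 16.4 (-1.55), and Pax5, the B lineage factor, 38.3 and 12.9 (-0.98 at the floor), both within background in osteoclasts. Ebf1 stood at -0.33, and Blk (0.53) and Igll1 (0.27) lay above the shift within background. Cd79a, Ms4a1 and Vpreb1 were under the floor in both arrays. Only Cd79b was at least 2-fold lower, and none was at the cautious level. The part of B cells in the Cd22 difference was not tested. Of 5 oligodendrocyte and neural markers read beside Mag, Mog, Olig1 and Olig2 were under the floor in both arrays. The other 2 were measured in both, Cnp at 855 and 263 (-1.27, and lower still at its other probe sets, -1.81 and -1.97) and Mbp at 418 and 292 (-0.088). Their bearing on Mag was not tested.

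Galectins lay on both sides of the shift. All 8 passed the floor in at least 1 array, 4 lay above and 4 below the shift, and the median was -0.085 (-0.52 as deposited). Lgals1, which crosslinks surface glycoproteins, had 15225 in macrophages and 9531 in osteoclasts (-0.24), and its second probe set differed by -0.22. Lgals3, the Mac-2 antigen of macrophages, had 10591 and 8248 (0.072). Of the galectins with tandem binding domains, Lgals9 had 1054 and 574 (-0.44) and Lgals8 had 915 and 461 (-0.56), while another Lgals8 probe set differed by 0.18. No galectin measured above the cautious background level in both arrays was 2-fold apart.

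The dimmer galectins gave no firm difference. Lgals2 read 30.8 and 34.7 (0.60), with a second probe set at -0.40, and Lgals12, known from fat cells, read 34.4 and 27.6 (0.12). Lgals4 and Lgals7 are genes of epithelia. Lgals4, the single gene counted as 2-fold higher, read 15.7 in macrophages and 25.5 in osteoclasts. Both signals are within the range of background, and the difference of 1.01 fell to 0.37 with the 50th percentile of each array as the floor. At the cautious level the gene was not measured. Lgals7 read 25.9 and 8.09. Lgals3bp, a secreted glycoprotein that binds galectin-3 and is no galectin itself, had 2180 and 1030 (-0.65, and -1.08 as deposited).

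**Figure D3:**
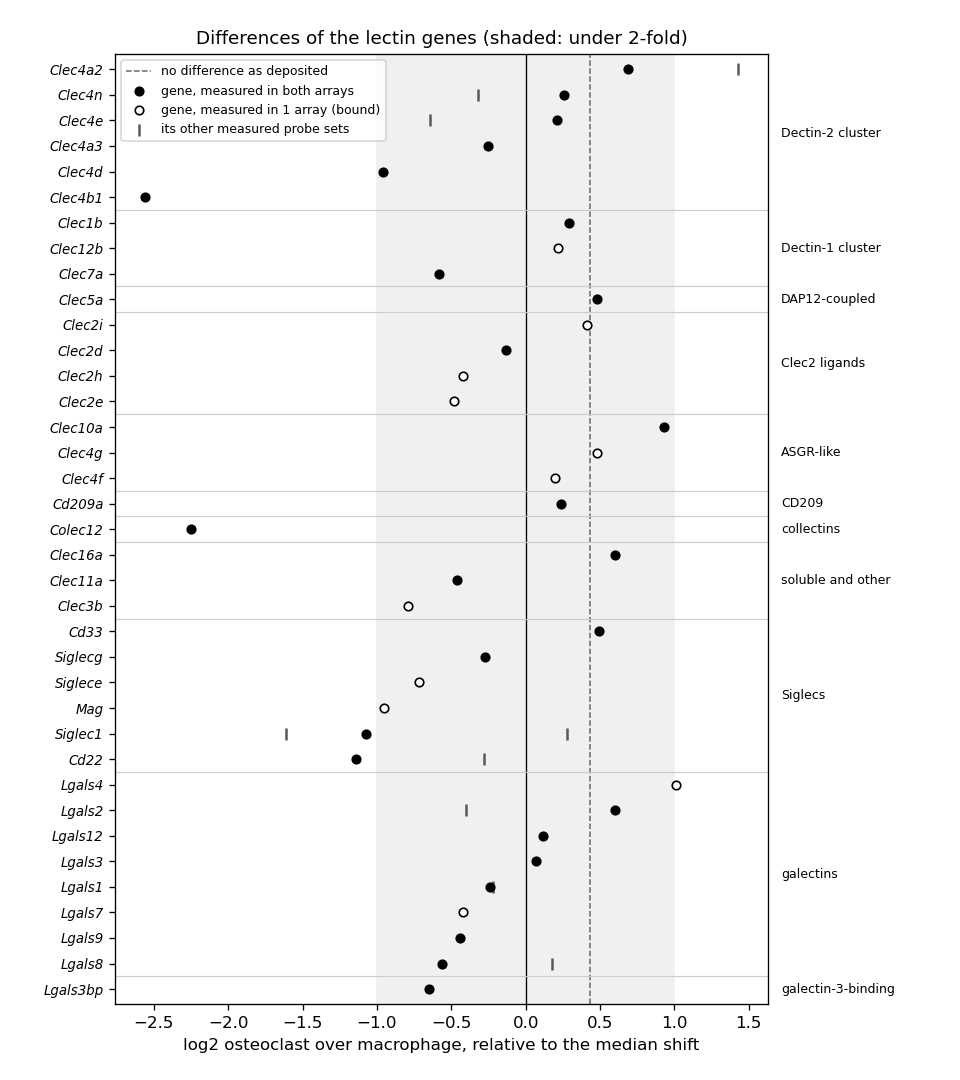
Log2 difference of osteoclasts over macrophages, relative to the median shift, for the 37 measured lectin genes by family, with other measured probe sets of the same gene as ticks. Open circles are bounds of genes measured in 1 array, and the dashed line is where deposited signals are equal. Clec4b1 and Colec12 stand beyond -2, while the galectins lie between -0.56 and 1.01.

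Granulocytes also express several of these receptors, among them Clec4d, Clec4e and Clec5a, and their markers differed between the cultures. Of 10 granulocyte markers, all were measured, with a summed signal of 3413 in macrophages and 6145 in osteoclasts. The median was 1.45 (1.01 as deposited), with 8 at least 2-fold higher in osteoclasts (5 as deposited) and Csf3r lower (-1.28). S100a8 had 1266 and 2133 (1.19), and Elane and Ctsg were under the floor in macrophages. Their part in the values of Clec4d, Clec4e and Clec5a was not tested.

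Genes that carry the signal of these receptors were read from a list of 20, of which 17 had a probe set of their own. All 17 were measured, 2 were at least 2-fold higher in osteoclasts and 1 was lower, with a median of -0.086 (-0.52 as deposited). These shares of 11.8% and 5.88% are near the 7.11% and 6.99% of all genes. Src, a tyrosine kinase needed for the osteoclast's ruffled border, read 78.3 against 341 (2.55), with 2.44 at its other probe set. Malt1, a protease that links the adaptor Card9 to NF-kappaB, had 130 and 248 (1.37). Its other probe sets differed by 2.51 and 3.18, from macrophage signals within background. Vav1, an exchange factor, had 509 and 156 (-1.27), with -0.97 at its other probe set. Both ITAM adaptors stayed within 2-fold of the shift. Tyrobp, which encodes DAP12, had 8500 and 5689 (-0.15), and Fcer1g had 7412 and 2875 (-0.93). Fcer1g lay just inside the 2-fold limit, and as deposited (-1.37) it passed it, while Tyrobp (-0.58) did not. The kinase gene Syk had 619 and 814 (0.83). Its other probe sets differed by 0.93, 1.03 and 1.59, the last from a macrophage signal within background. As deposited, 1 gene of the list was higher and 4 were lower.

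Sialic acids, the ligands of Siglecs, are made, placed and removed by the products of a list of 28 genes, sialidases included, of which 21 were measured. Here 6 were at least 2-fold higher in osteoclasts and 1 was lower (3 and 2 as deposited), with a median of 0.22, which turns to -0.21 as deposited. That is 28.6% higher and 4.76% lower, beside 7.11% and 6.99% of all genes. The largest higher values were those of sialyltransferase genes. St8sia6 had 11.3 in macrophages, under the floor, and 111 in osteoclasts, and a probe set of it measured in both arrays differed by 1.79. St3gal1 had 53.5 and 177 (2.16), and St6galnac4 had 170 and 366 (1.54). The remaining higher genes were under 2-fold at other measured probe sets. These were St3gal3 (1.33, other 0.82), St6gal1 (1.03, other 0.57) and St3gal6 (1.01, others 0.069 and -0.28). St3gal5, the synthase of the ganglioside GM3, had 1980 in macrophages and 175 in osteoclasts (-3.07), with a second probe set at -2.43. It acts on a glycolipid rather than on the glycoproteins that most sialyltransferases serve.

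Galactose-containing glycans, the ligands of galectins, were read through a list of 25 genes, most of them of N-glycan trimming, branching and galactosylation, and some of O-glycans or glycolipids. Of 24 measured, 7 were at least 2-fold lower in osteoclasts and none was higher (9 and 0 as deposited), and the median was -0.30 (-0.73 as deposited). The lower share was 29.2%, beside 6.99% of all genes (17.5% as deposited). It is not a count of N-glycan genes alone, since both genes with the largest differences act elsewhere: B4galt6, a synthase of lactosylceramide, had 2694 and 306 (-2.70), and its 4 probe sets ran from -3.89 to -2.28. Gcnt1, which branches O-glycans, had 1205 and 195 (-2.20). The mannosidase gene Man2a2 had 320 and 91.7 (-1.37). The other 4 were the mannosidase genes Man1a and Man1c1, the glycosyltransferase gene B3gnt8, and Mgat5, whose N-glycan branch galectin-3 binds. Mgat5 had 705 and 245 (-1.09), with a second measured probe set at -0.70.

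Lectins with other names were read from a list of 37. Of 28 measured, 4 were at least 2-fold higher and 7 lower in osteoclasts (3 and 9 as deposited), and the median was -0.093 (-0.53 as deposited). These are 14.3% and 25.0%, beside 7.11% and 6.99% of all genes. Layn, a hyaluronan receptor, read 37.3 against 162 (2.55), with 2.18 at its other probe set. Fcna, the soluble lectin ficolin A, had 87.2 and 273 (2.08), and Igf2r, the larger mannose 6-phosphate receptor, had 378 and 1130 (2.01). On the lower side, Cd93 had 3682 and 716 (-1.93), and the mannose receptor gene Mrc1 had 2504 and 603 (-1.62). Cd248, a stromal lectin, had 72.1 and 18.2, the latter within background (-1.56).

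**Figure D4:**
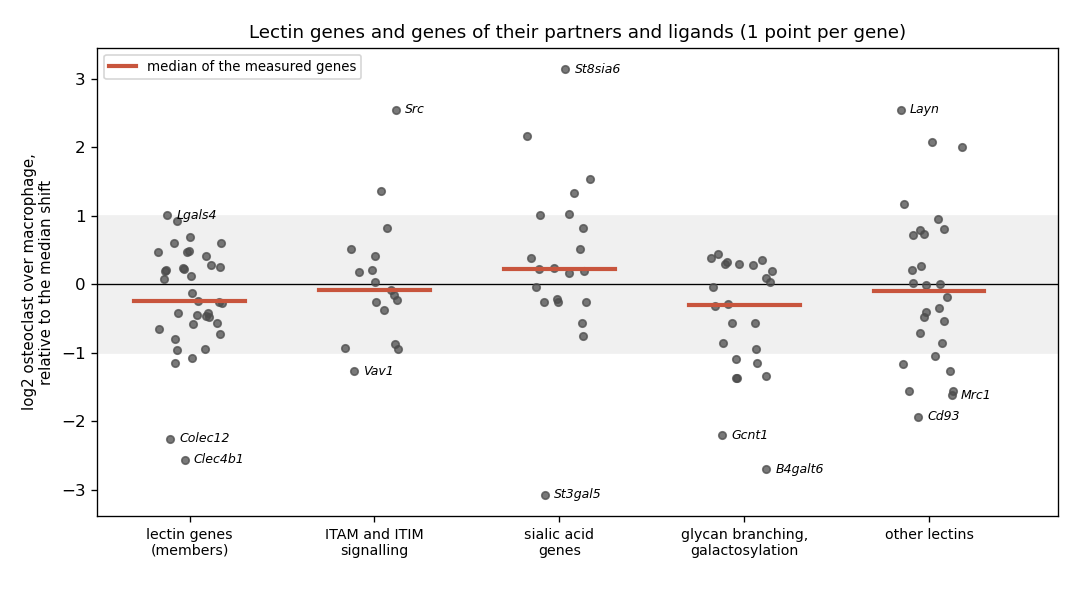
Log2 difference of osteoclasts over macrophages, relative to the median shift, for each measured lectin gene and for each measured gene of the 4 lists of signalling partners, sialic acid genes, genes of galactose-containing glycans and other lectins. Bars are medians (-0.24, -0.086, 0.22, -0.30 and -0.093), and the shaded band is under 2-fold.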

How the data were processed

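Total RNA (1 µg per culture) was, per the labels' protocols, turned into biotin-labelled cRNA in a single cycle for Affymetrix arrays. The deposited table holds a linear intensity per probe set, 45101 in each of 2 arrays. The sources used here do not give how the authors condensed, background-corrected and scaled these intensities. After 64 controls were left out, 34945 probe sets with 1 gene symbol were used. Gene names came from the platform annotation, which can be old, and 34741 Entrez identifiers were found in the RefSeq table of GRCm38.p6, with no symbol changed.

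Floors, the median shift and the 2-fold limit are described with the results. A difference bounded on 1 side was not allowed to cross 0. Each lectin gene measured in at least 1 array was named, and from each partner list up to 3 genes in each direction with the largest differences of at least 2-fold, with further genes and adaptors of these lists added after their values were seen. The members and lists were chosen with earlier results of these data known. Calculations used Python 3.11.15, numpy and pandas, and were checked on simulated data. Alternatives changed the scale, the floor, the probe set rule and a pseudocount. Signals carry no count, so depth is unknown, and the number of arrays limits the precision.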

Additional observations from a re-analysis of the deposited data

How the results depend on the processing

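Of the 5 lectin genes at least 2-fold apart, Clec4b1 and Colec12 kept their direction and passed 2-fold under all 8 alternatives. Each has 1 probe set and signals above every floor used. The mean over probe sets and the changes of floor could therefore hardly alter them, and only the other alternatives put these calls at risk. Among the 37 measured lectin genes, no called difference changed sign. The number at least 2-fold higher was 1. It was 0 as deposited, with quantile normalization, with centring on the median of all probe sets, and with the 50th percentile or the 95th percentile of receptors as the floor. It was 2 with the mean over probe sets, 2 with a pseudocount of 16 and 7 with no floor, where all 53 genes were counted and 15.3% of all genes were higher. The number at least 2-fold lower was 4. It was 10 as deposited (17.5% of all genes), 15 with no floor (14.3% of all genes) and 2 with the mean over probe sets, and between 3 and 6 otherwise. Lgals4 was lost under 6 of the alternatives and Siglec1 under 3, namely the receptor level as the floor, the mean over probe sets and the pseudocount. Cd22 was lost under the latter 2. Clec4d and Mag passed 2-fold as deposited, with quantile normalization, with centring on the median and with the pseudocount, and Mag also with no floor. The median of the lectin genes, -0.24, was -0.68 as deposited (-0.43 for all genes), -0.43 with centring on the median of all probe sets (-0.18 for all genes), and between -0.22 and -0.11 otherwise. No paired analysis was possible because each group has 1 array. Signals near background limit 10 of the 37 genes, which were not measured at the receptor level. They also limit Clec11a, Clec3b, Mag, Siglec1 and Siglece, which were under that level in osteoclasts and have bounds at most there.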
